A study of Homo sapiens with 4 samples.

Results

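NME1 and NME2 are neighbouring genes on the plus strand of chromosome 17 that encode nucleoside diphosphate kinases A and B. Their RNAs were examined for binding by the La-related protein LARP4 in HEK293, an established line from human embryonic kidney. The locus was chosen by its large number of enriched regions in these same data. Its members are the plus-strand intervals overlapping 49230800 to 49249200 of hg19 in the authors' 3 lists. There were 40 of 171755 clusters in replicate 1 and 38 of 191899 in replicate 2. The series-wide list, which the authors made from both replicates, contributed 33 of its 7153 regions. NME1 was taken as 49230800 to 49240000 and NME2 as 49242000 to 49249200. The NME1 part held 18 clusters, 19 clusters and 16 regions in these lists, and the NME2 part held 22, 19 and 17.

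The 2 LARP4 eCLIP replicates were HEK293 cells exposed to 400 mJ/cm2 of ultraviolet light at 254 nm, followed by immunoprecipitation with a LARP4 antibody. In eCLIP the light joins a protein to the RNA it touches, and the RNA pulled down with an antibody to that protein is compared with a size-matched input, taken from the same size range of the gel with no pull-down. The 2 size-matched inputs were HEK293 cells under the same protocol and entered only as the denominator of the deposited log2 folds. No sample was treated otherwise or carried a genetic change named in the labels.

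Nucleoside diphosphate kinases move the terminal phosphate of a nucleoside triphosphate, usually ATP, onto a nucleoside diphosphate, and so keep the pools of GTP, CTP and UTP filled. NME1 (also NM23-H1) was first described for its low expression in highly metastatic tumour cells, and NME2 (NM23-H2) encodes a closely similar protein. Both subunits assemble into mixed hexamers. A read-through transcript, NME1-NME2, starts at NME1 and runs into NME2. LARP4 binds poly(A) and the poly(A)-binding protein and is known to stabilise mRNAs.

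The starts of both genes are shown as background, and no cluster was placed against them. The sequences are RefSeq's for GRCh38.p14, plus strand, and their positions must not be set against the hg19 positions elsewhere in the text. Each run has 50 bases before the annotated start in lower case and 30 bases from the start onwards in capitals. NME1 and NME1-NME2 have the same entry, and NME2 has 3 entries.
NME1 start (chr17:51153509-51153588): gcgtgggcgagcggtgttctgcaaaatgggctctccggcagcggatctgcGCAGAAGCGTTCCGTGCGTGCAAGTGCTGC
NME2 start 1 (chr17:51165486-51165565): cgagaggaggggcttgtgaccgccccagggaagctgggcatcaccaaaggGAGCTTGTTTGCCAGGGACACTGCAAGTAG
NME2 start 2 (chr17:51166361-51166440): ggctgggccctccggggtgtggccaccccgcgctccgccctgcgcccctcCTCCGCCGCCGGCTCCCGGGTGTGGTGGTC
NME2 start 3 (chr17:51166451-51166530): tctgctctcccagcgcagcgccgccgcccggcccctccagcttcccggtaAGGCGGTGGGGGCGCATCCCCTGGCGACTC

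The annotated starts of NME2 lay 11977, 12852 and 12942 bases downstream of that of NME1 in GRCh38.p14, so the tandem genes have separate starts. NME2 start 2 opened with C and a run of 4 pyrimidines. The NME1 start and NME2 start 1 opened with G, and NME2 start 3 with A. A C followed by pyrimidines in a run of at least 5, the pattern of terminal oligopyrimidine mRNAs, was at none of these starts and at 4.07% of the 35116 start entries of the table. Runs were counted only from the annotated base onwards, and the pyrimidines at NME2 start 2 also extend upstream of it. In the 250 bases before the start, GC content was 55.2% for NME1 and 59.2%, 68.8% and 77.6% for the NME2 starts, against a median of 58% over all entries. The GC box GGGCGG, on either strand, occurred 0 times before the NME1 start and 1, 3 and 4 times before the NME2 starts, while 42.6% of all entries held it. The windows of NME2 starts 2 and 3 lie 90 bases apart and share most of their sequence. CCAAT on either strand occurred once before NME1 and before none of the NME2 starts, against 32.0% of entries with it. TATAAA was before none of the 4 starts and before 10.7% of entries. These are matches of letters only.

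LARP4 eCLIP was above input from the first to the last cluster of both genes. Every cluster of the locus lay above input in both replicates. The lowest values were log2 folds of 2.47 and 2.54, whereas 11.6% and 11.2% of all clusters in the lists lay below input. Median log2 folds were 3.15 and 3.60 over the locus and 1.28 and 1.30 over the whole lists. A cluster was called enriched at a log2 fold of at least 3, which is 8-fold, with a −log10 p of at least 3. By this rule 22 of 40 clusters were enriched in replicate 1 (55.0%, Wilson 95% interval 39.8 to 69.3), beside 5.01% of all clusters. In replicate 2 there were 34 of 38 (89.5%, 75.9 to 95.8), beside 5.50% of all clusters. These counts describe the locus, since the same measurement chose it, and no test was made on them. Touching clusters are pieces of one stretch of RNA and not independent. The intervals count each cluster as a separate draw, so they are too narrow.

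**Figure D1:**
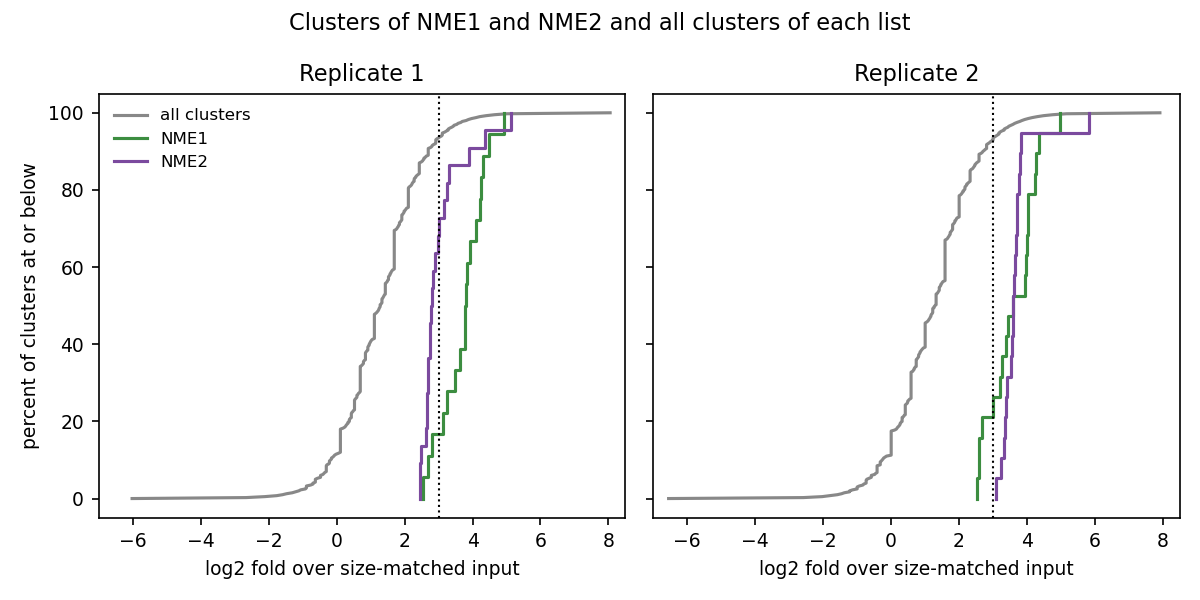
Cumulative percent of clusters (y axis) against log2 fold over size-matched input (x axis) in each replicate, for all clusters of the list (grey), NME1 (green) and NME2 (purple); the dotted line is a log2 fold of 3. No cluster of either gene lies below 2.47, and in replicate 1 most of the NME2 curve lies below 3 while in replicate 2 all of it lies above.

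The clusters lay in 10 short blocks, 5 in each gene. A block is a run of clusters of either replicate, enriched or not, with at most 100 bases between them. In replicate 1, NME2 block 1 had 0 of 3 clusters enriched. The blocks of NME1 span 8428 bases, from 49230948 to 49239375, and clusters cover 684 of these (8.12%). Those of NME2 span 5283 bases, from 49243772 to 49249054, with 546 bases covered (10.3%). The 4396 bases between the last NME1 block and the first NME2 block held no cluster in any of the 3 lists. The minus strand of the window also held none. On the plus strand the nearest cluster outside the window was 286 kb away on the 5′ side in both replicates, at log2 folds of 2.43 and 1.59. On the 3′ side it was 89.0 and 88.8 kb away, at −0.23 and 0.47.

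Blocks at the same place in each gene had equal or similar widths. The second block was 130 bases wide in NME1 and 130 in NME2, and the third was 102 bases wide in both. The fourth was 110 bases in NME1 and 113 in NME2, and the first was 76 and 87. The last blocks differed most, at 277 bases in NME1 and 207 in NME2. Every block had a cluster in each replicate and at least 1 series-wide region. Whether the blocks are exons was not read from an annotation, since none of hg19 was used here. The genes have closely similar coding sequences, and the sources used here do not say how reads that match both were assigned, so the division of signal between the copies is uncertain.

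**Figure D2:**
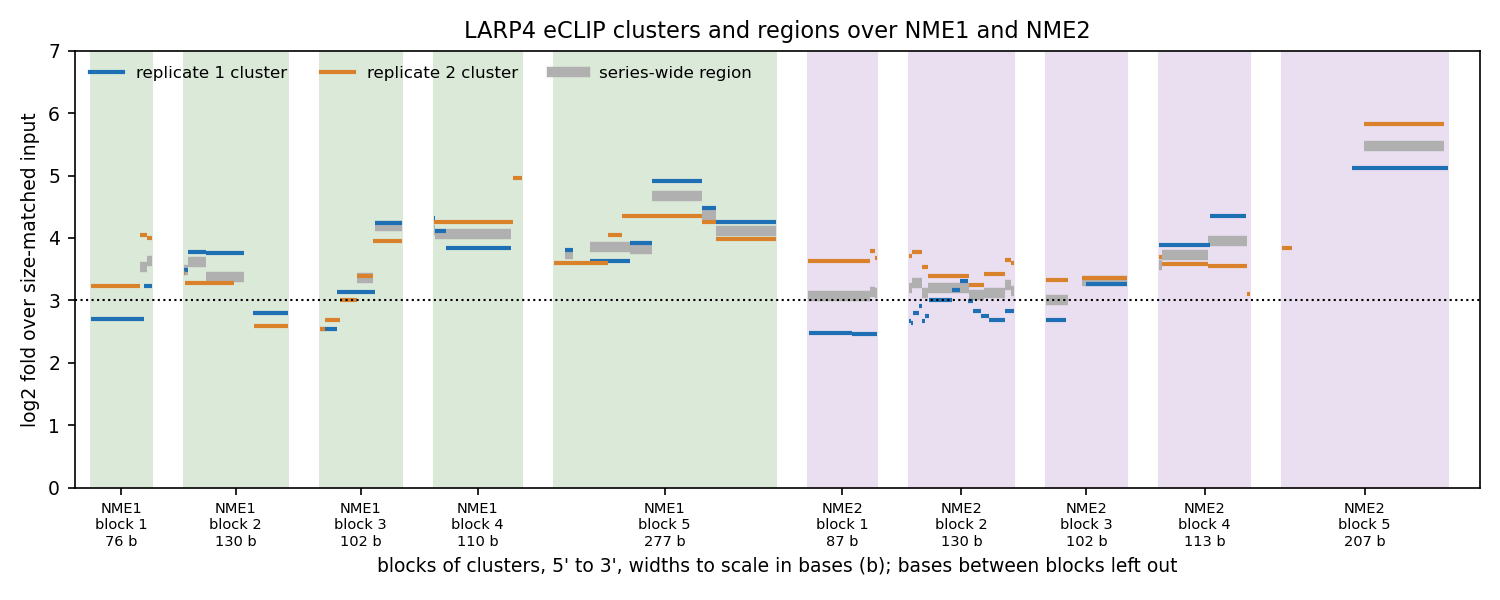
Each horizontal bar is 1 interval of the NME1 and NME2 locus, placed by its log2 fold over size-matched input (y axis) within its block (x axis, widths to scale in bases, with the bases between blocks left out), for replicate 1 (blue), replicate 2 (orange) and the series-wide list (grey). The highest bars of all 3 lists are in NME2 block 5, at 5.13, 5.83 and 5.47, and the replicates lie apart in NME2 blocks 1 and 2, with replicate 2 above.

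In NME1 the first 3 blocks had lower folds than the last 2 in both replicates. Mean log2 fold over covered bases in replicate 1 was 2.77 in block 1, 3.41 in block 2, 3.37 in block 3, 3.89 in block 4 and 4.25 in block 5. In replicate 2 it was 3.37, 3.01, 3.32, 4.33 and 4.05 in the same order. Blocks 1 to 3 thus averaged 3.21 ± 0.035 and blocks 4 and 5 averaged 4.13 ± 0.080 (SD, n = 2), with no overlap between them in either replicate. The order within the first 3 blocks differed between replicates, as did that of the last pair. The last block exceeded the first by 1.49 in replicate 1 and 0.68 in replicate 2.

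In NME2 the last block stood above all others of the locus. Replicate 1 gave mean log2 folds of 2.47, 2.90, 3.08, 4.08 and 5.13 for blocks 1 to 5. Replicate 2 gave 3.65, 3.45, 3.34, 3.56 and 5.60. Block 5 had 5.36 ± 0.33 (SD, n = 2), or 41.1-fold over input, and the next highest block of the locus was NME1 block 5 at 4.15 ± 0.15, or 17.8-fold. Replicate 1 increased at every step from block 1 to block 5, whereas in replicate 2 the first 4 blocks lay within 3.34 to 3.65. The last block exceeded the first by 2.66 and 1.95.

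**Figure D3:**
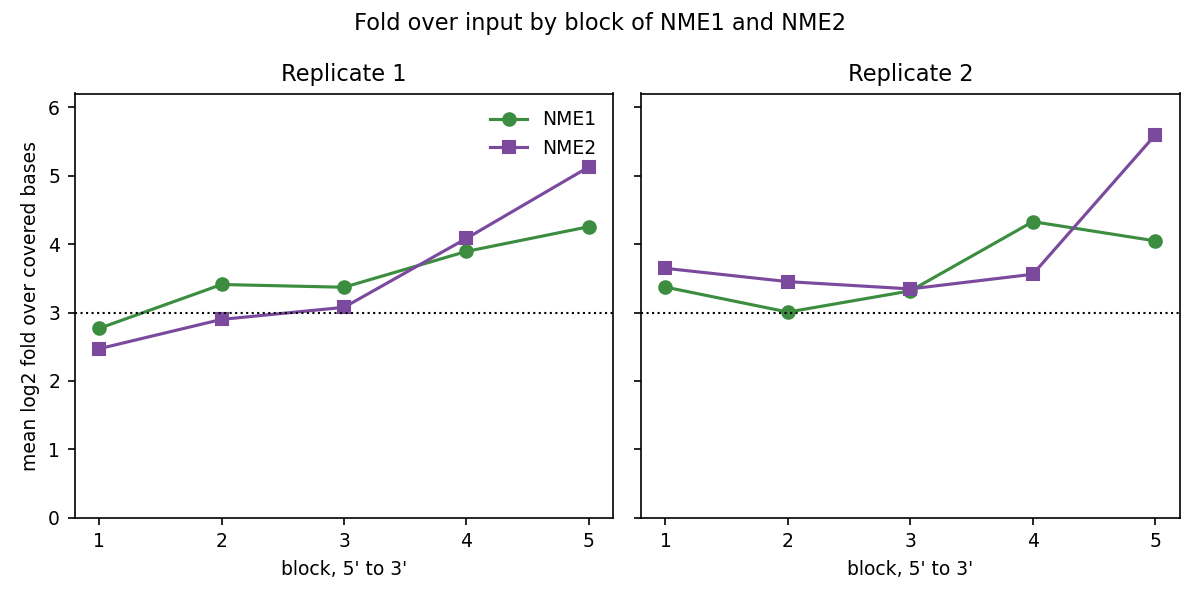
Mean log2 fold over covered bases (y axis) of blocks 1 to 5 from the 5′ to the 3′ end (x axis) for NME1 (green circles) and NME2 (purple squares), 1 panel per replicate; the dotted line is a log2 fold of 3. Block 5 of NME2 is the highest point in both panels, at 5.13 and 5.60, and the genes change order between the replicates at each of blocks 1 to 4.

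Set side by side block by block, the genes differed in one direction in both replicates at the last block only. There NME1 minus NME2 was −0.87 in replicate 1 and −1.55 in replicate 2 (mean −1.21 ± 0.48, SD, n = 2). The differences at blocks 1 to 4, NME1 minus NME2, were 0.30, 0.51, 0.29 and −0.19 in replicate 1 and −0.27, −0.44, −0.029 and 0.77 in replicate 2, so the sign turned between replicates in each. Their means, from 0.012 to 0.29, were smaller than their SDs of 0.23 to 0.68. Both genes were measured in the same 2 replicates, for which an exact sign-flip permutation test cannot go below a two-sided p of 0.5, and none was run.

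Over whole genes the median log2 fold of clusters stood at 3.80 in replicate 1 and 3.60 in replicate 2 for NME1, and 2.81 and 3.59 for NME2. NME1 was thus higher by 0.99 in replicate 1 and by 0.011 in replicate 2 (mean 0.50 ± 0.69, SD, n = 2). Averaged over covered bases instead of clusters, NME1 had 3.72 and 3.74 and NME2 had 3.61 and 3.95, and the mean difference turned to −0.048 ± 0.22. The median counts each of the many short clusters of NME2 block 2 as much as the single long cluster of block 5. No difference between the genes exceeded the spread between replicates by either measure.

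The replicates called similar shares of NME1 clusters and different shares of NME2 clusters. Of the NME1 clusters, 15 of 18 were enriched in replicate 1 (83.3%, Wilson 95% interval 60.8 to 94.2) and 15 of 19 in replicate 2 (78.9%, 56.7 to 91.5). Of the NME2 clusters, 7 of 22 were enriched in replicate 1 (31.8%, 16.4 to 52.7) and 19 of 19 in replicate 2 (100%, 83.2 to 100). As a share of covered bases these were 79.6% and 90.0% for NME1 and 63.1% and 100% for NME2. NME2 clusters that missed the threshold in replicate 1 had log2 folds from 2.47 to 2.99 and lay in blocks 1 to 3. The Wilson intervals of each gene also count touching clusters as separate draws. They are therefore too narrow to judge the gap between replicates, which was not tested.

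All 40 replicate 1 clusters overlapped a replicate 2 cluster by at least 1 base, beside 44.8% of all replicate 1 clusters. Both members of the pair were enriched in 22 cases, replicate 2 alone in 16, neither in 2 and replicate 1 alone in 0. Of all overlapping pairs in the lists, 6.51% were enriched in both. All 22 enriched replicate 1 clusters of the locus had an enriched partner, beside 66.7% of the enriched clusters with a partner in the whole list. For NME2 the counts were 7, 15, 0 and 0. In the other direction, 35 of 38 replicate 2 clusters overlapped a replicate 1 cluster, beside 40.1% of all. Of the 31 enriched among them, 18 (58.1%) had an enriched partner, near the 56.9% of the whole list. The replicate 2 cluster at 49231010 to 49231017 overlapped 2 replicate 1 clusters equally and was paired with the one not enriched. The locus was chosen by its number of regions in a list made from both replicates, so these shares are a description. Over the bases covered in both replicates, replicate 2 was higher at 390 of 498 bases of NME2 (78.3%) and at 263 of 622 of NME1 (42.3%). In NME2 block 1 it was higher by 1.17 and in block 2 by 0.55, and in NME2 block 4 it was lower by 0.52.

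The −log10 p values were larger in NME2 than in NME1 at lower or similar folds. Their median was 24.7 in replicate 1 and 23.4 in replicate 2 for NME1, and 76.5 and 68.3 for NME2. The lists' upper limit of 400 was reached by 1 NME1 cluster in each replicate and by 7 NME2 clusters in each. Over the whole lists 0.293% and 0.274% of clusters reached it, and the median −log10 p was 0.57 and 0.54. NME2 block 1 of replicate 1 had 2 of its 3 clusters at the limit with a log2 fold of 2.47. The lists hold no read numbers, so depth is unknown.

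The 33 series-wide regions were largely pieces of longer bound stretches. Widths ran from 2 to 99 bases with a median of 20, against 64 over the whole list, and 11 regions were under 10 bases. Joining regions that touch left 13, with 7 in NME1 and 6 in NME2, and joining those within 100 bases left 10, which is 1 per block. Among the 2232 loci with a region, where a locus is a run of clusters on 1 strand with gaps of at most 5 kb, NME1 and NME2 together stood in place 3 by regions as listed. They stood in place 10, tied among 6 loci, once touching regions were joined, and in place 21 by the 991 bases under regions. Over the whole list 29.8% of regions touched the one before them in the same locus, against 60.6% here. NME2 block 2 alone was listed as 8 touching regions that together cover its 130 bases.

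The authors' log2 fold had a median of 3.84 over the 16 NME1 regions, with a range of 3.37 to 4.67, and of 3.19 over the 17 NME2 regions, with a range of 3.01 to 5.47. Over the whole list the median was 3.65, with quartiles of 3.31 and 4.12. The median of the locus, 3.53, thus lay below that of the list, and 58.0% of all regions had a fold at least as high. The NME2 median lay below the list's lower quartile. The authors' fold was at least 4 in 7 NME1 regions and in 1 NME2 region. The upper quartile of the whole list, 4.12, also lay above 4, so such folds are not particular to the locus. The list admits no value below 3, and the region nearest that limit was in NME2 block 3, at 49245603 to 49245630, with 3.01. The authors' fold lay close to the base-wise mean of the replicates, with a median difference of 0.0096 and a largest difference of 0.31. For the comparisons that follow, each region has in each replicate the log2 fold of the cluster with the longest overlap. By that measure all 33 regions were enriched in replicate 2 and 21 in replicate 1, which were 15 of 16 in NME1 and 6 of 17 in NME2. The NME1 region that missed, at 49231010 to 49231017, overlapped 2 replicate 1 clusters equally. The cluster taken was not enriched and the other was, at 3.24. The list was made from these replicates with a fold limit, so high counts are built into it. Over all 7153 regions 83.0% were enriched in replicate 1 and 89.5% in replicate 2, against 63.6% and 100% here. Replicate 2 was the higher in 6 of 16 NME1 regions and in 14 of 17 NME2 regions, with median differences, replicate 2 minus replicate 1, of −0.13 and 0.74.

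**Figure D4:**
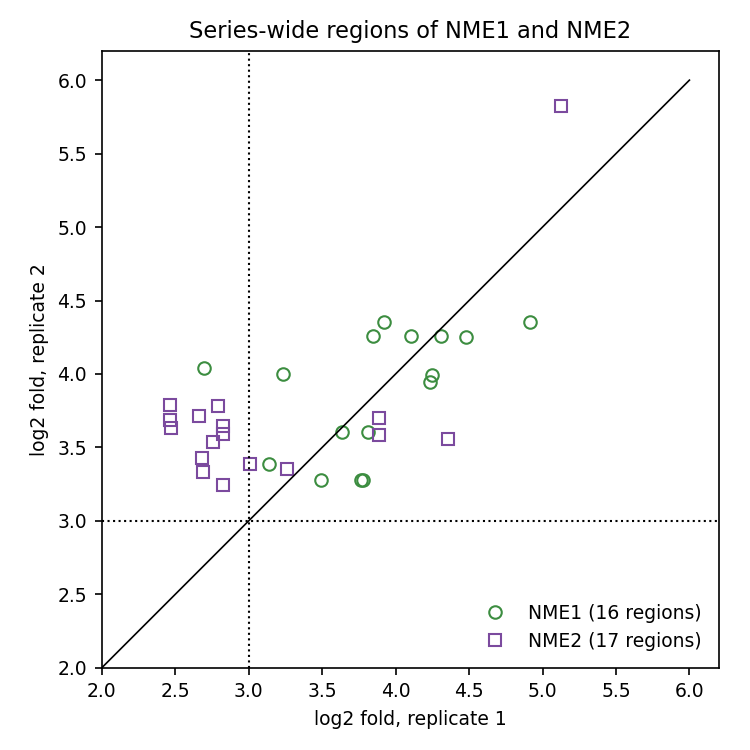
Log2 fold of the longest-overlapping cluster in replicate 1 (x axis) and replicate 2 (y axis) for the 16 NME1 regions (green circles) and 17 NME2 regions (purple squares); the solid line marks equal values and the dotted lines a log2 fold of 3. NME1 regions lie on both sides of the line, 14 of 17 NME2 regions lie above it, and the NME2 region of block 5 stands alone at 5.13 and 5.83.

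The strongest region of the locus was in the last block of NME2, at 49248951 to 49249049. Replicate 1 gave it a log2 fold of 5.13, which is 35.0-fold over input, and replicate 2 gave 5.83 (mean 5.48 ± 0.49, SD, n = 2), with −log10 p at the limit of 400 in both. Only 0.211% and 0.0756% of all clusters in the lists had a fold as high. It was the single region of a block in which replicate 1 had 1 cluster, at 49248936 to 49249054, and replicate 2 had a second cluster of 13 bases further 5′ at 3.84.

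The region next in rank by the lower replicate was in the last block of NME1, at 49239222 to 49239283, with 4.92 and 4.35 (4.63 ± 0.40). Adjoining it on the 3′ side, 49239284 to 49239301 had 4.48 and 4.25 (4.37 ± 0.16) and 49239302 to 49239375 had 4.25 and 3.99 (4.12 ± 0.18). The latter ends NME1's bound stretch and was the only NME1 region with −log10 p at the limit. On the 5′ side, 49239194 to 49239221 had 3.92 and 4.35 (4.14 ± 0.31). Within this block the highest fold was therefore in its middle in both replicates.

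NME1 block 4 supplied 3 of the 10 regions with the largest lower value. These touch one another, and all share the replicate 2 cluster at 4.26. Their replicate 1 values were 4.31 at 49238521 to 49238522, 4.10 at 49238523 to 49238536 and 3.85 at 49238537 to 49238617. Replicate 2 had a further cluster of 11 bases in this block, at 49238620 to 49238630, with 4.96, its highest value in NME1. The last of the 10 were 49237410 to 49237442 in NME1 block 3, with 4.23 and 3.95 (4.09 ± 0.20), and 49247298 to 49247300 in NME2 block 4, with 3.89 and 3.70 (3.79 ± 0.13). NME1 thus held 8 of the 10 and NME2 held 2. The order among them was not tested.

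The first region of each gene had replicates far apart. The first NME1 region, at 49231010 to 49231017, had 4.04 in replicate 2. In replicate 1 it overlapped 2 clusters equally, at 2.70 and 3.24, and averaged 2.97 over its bases. Taking the first of these clusters gave 3.37 ± 0.95 (SD, n = 2), the largest spread of the locus only under that choice. The first NME2 region, at 49243772 to 49243849, had 2.47 and 3.63 (3.05 ± 0.82). Replicate 2 was the higher in both. Replicate 1 had its lowest NME2 value in the block of that NME2 region but 3′ of it, 2.47 at 49243851 to 49243858. The lowest NME1 clusters of both replicates began at the same base of block 3, 49237341, with 2.54 in each. The lowest NME2 cluster of replicate 2 was at the 3′ edge of block 4, at 49247407 to 49247410, with 3.11.

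Within NME1 block 3 the fold was higher towards the 3′ edge in both replicates. Replicate 1 had 2.54, 3.14 and 4.23 in 3 consecutive clusters, and replicate 2 had 2.54, 2.69, 3.01, 3.39 and 3.95 in 5. Block 2 of NME1 had its lowest values at the 3′ edge. Replicate 1 had 3.49, 3.78 and 3.76 before 2.80 in its last cluster, and replicate 2 had 3.44 and 3.28 before 2.59 in both of its last clusters. The equally wide block 2 of NME2 had 14 clusters between 2.64 and 3.31 in replicate 1, the highest at 49244251 to 49244260. In replicate 2 it had 8 clusters between 3.24 and 3.78, the highest at 49244191 to 49244203.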

How the data were processed

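Values came from 2 LARP4 eCLIP replicates, grouped by sample title, with 2 size-matched inputs as denominators. Per the labels' protocols, reads went through the authors' eCLIP pipeline. The build was hg19 and the tools included STAR 2.7.6a, cutadapt 1.14, SAMtools 1.6 and UMI-tools 1.0.0, per the submitters' processing notes. The sources used here do not give the peak caller, the depth scaling or how replicates were combined. The authors deposited, per interval, a −log10 p and a log2 fold of eCLIP against input, as judged from the values, since no header names them. Read depth is unknown, so a single fold has no interval.

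Starts were made 1-based, and intervals were assigned to genes by position. Blocks join clusters at most 100 bases apart. Interval functions were tested on simulated intervals. No test was made, because this contrast chose the locus. Members, parts and thresholds were chosen with earlier results of these data known. Named regions are the 10 highest in their lower replicate, the first of each gene, the one nearest the threshold and the lowest clusters. Other NME genes were not analysed here, for want of an hg19 annotation. Python 3.11.15, numpy 2.4.6, pandas 2.3.3 and matplotlib 3.10.9 were used.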

Additional observations from a re-analysis of the deposited data

How the results depend on the processing

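No paired analysis was possible because each deposited fold already combines eCLIP with input, the groups that share replicate numbers. Differences between the genes were taken within each replicate. Of 27 alternatives other than leaving out a replicate, 18 stayed within 1.5 times of a count or within 1 SD of another value, 8 moved further and 1 turned the sign. For the enriched share, NME1 minus NME2, the SD was 51.3 percentage points. Staying within it therefore shows little on stability. Leaving out 1 of 2 replicates gives the other's value, which lies within 1 SD of the mean by construction and shows nothing on stability. The 33 regions became 13 with touching regions joined, 21 with an enriched cluster required in both replicates and 8 with the log2 fold limit raised from 3 to 4. An enriched cluster in both replicates was held by 72.5% of all regions in the list, against 63.6% here. The latter counts the NME1 region with 2 equal overlaps as not enriched in replicate 1. At a limit of 4, 8 and 7 clusters were enriched in replicates 1 and 2, and the share of all clusters at that limit is not given here. With the limit lowered to 2, all 40 replicate 1 clusters were, while the upper quartile of all replicate 1 clusters was a log2 fold of 2.04. Requiring an overlap of 50% of both clusters left 12 of 22 replicate 1 clusters enriched in both. Averaging over bases moved the NME2 log2 fold from 3.20 to 3.78 and turned the NME1 minus NME2 difference from 0.50 to −0.048. With 1 replicate left out, that difference ran from 0.011 to 0.99. The difference in enriched share, 15.2 percentage points, ran from −21.1 without replicate 1 to 51.5 without replicate 2. With the log2 fold limit at 4 the share difference was 25.3 ± 1.5 percentage points (SD, n = 2). It then rested on the 8 and 7 clusters that reach that limit. With the limit at 2 the share difference was 0. The last-block comparisons and locus ranks were chosen after seeing the data.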
